A study of Mus musculus with 7 samples.

Results

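The genes described here are 7 genes of the renin-angiotensin system and of the cells that make renin: Ren1, Agt, Ace, Agtr1a, Agtr1b, Agtr2 and Akr1b7. They were picked by symbol from 23235 gene symbols, with earlier results of the same genotype comparison known, so their own differences between genotypes are given as a description with no test. RNA of 7 cultured fetal mouse kidneys had been sequenced. Of these libraries, 3 came from beta-catenin activated, E2-2 deleted kidneys and 4 from beta-catenin activated, E2-2 wildtype kidneys, all on the C57BL/6 strain. Activated beta-catenin, which switches on Wnt target genes, was thus shared by both genotypes, and no library had unmodified beta-catenin. E2-2 is an E protein, a class of transcription factors that bind DNA as dimers through a helix-loop-helix domain. Per the labels' protocols, pregnant mice received 2 mg of tamoxifen per 40 g of body weight at 10.5 days post coitum, the stage at which the kidneys were taken. All organs were cultured for 3 to 4 days with insulin, transferrin and selenium. The driver of any recombinase and the culture time of each library are not given in the labels, nor do they say if the libraries are from separate animals. The p-values below therefore reflect variation among these 7 libraries, part of which may be technical.

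The renin-angiotensin system is a hormone cascade that controls blood pressure and salt balance and is also needed for normal growth of the kidney and its vessels. Renin, the protease encoded by Ren1, cuts angiotensinogen, the product of Agt, to angiotensin I, and angiotensin-converting enzyme, the product of Ace, turns angiotensin I into angiotensin II. Angiotensin II acts through type 1 receptors, which rodents encode in the genes Agtr1a and Agtr1b, and through the type 2 receptor, encoded by Agtr2, which is prominent in fetal mesenchyme. In the fetal kidney renin is made along the growing arteries by cells of stromal origin, and later mainly by juxtaglomerular cells beside the glomerulus. Akr1b7 encodes an aldo-keto reductase found in renin cells and in the adrenal cortex of the mouse.

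Levels are FPKM, the number of fragments divided by transcript length and by the mapped depth of the library, as the authors deposited them with a lower and an upper bound for each value. FPKM is a level per transcript length, so levels of different genes can be set side by side. Depth, inferred from the width of those bounds, was 14.5 to 26.6 mega-fragments per library. Replicates are numbered in order of deposit. The kidney genes Six2, Cited1, Pax2 and Wt1 were present in all 7 libraries, but E2-2 deleted replicate 2 stood apart. Six2, a factor of nephron progenitors, was at 2.69 FPKM there and at 29.0 to 74.8 FPKM in the other 6 libraries. Differences between genotypes in which that library stood out are given with and without it. File names start with BI for 4 libraries (replicates 1 and 2 of each genotype) and with BM for the other 3. What the prefixes stand for is not given.

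The promoter windows of the renin gene, the type 2 receptor gene and Akr1b7 are printed here because they are 3 of the 4 genes described below that shared their 4 highest libraries. Each window runs from 250 bases before to 50 bases after the transcript start in RefSeq, on GRCm38.p6. Capitals mark E-boxes (CANNTG, the motif that E proteins bind, the same on both strands) and the TCF/LEF motif ATCAAAG on either strand. The marked matches do not overlap. The windows are chr1:133350424-133350723 for Ren1, chrX:21484374-21484673 for Agtr2 and chr6:34412112-34412411 for Akr1b7, each on the plus strand.
Ren1: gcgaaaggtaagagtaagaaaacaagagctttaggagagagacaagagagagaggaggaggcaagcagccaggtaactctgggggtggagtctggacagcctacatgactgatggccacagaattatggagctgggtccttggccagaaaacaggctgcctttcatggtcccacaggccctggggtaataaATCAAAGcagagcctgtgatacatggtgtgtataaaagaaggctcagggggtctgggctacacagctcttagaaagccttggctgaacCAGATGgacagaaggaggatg
Agtr2: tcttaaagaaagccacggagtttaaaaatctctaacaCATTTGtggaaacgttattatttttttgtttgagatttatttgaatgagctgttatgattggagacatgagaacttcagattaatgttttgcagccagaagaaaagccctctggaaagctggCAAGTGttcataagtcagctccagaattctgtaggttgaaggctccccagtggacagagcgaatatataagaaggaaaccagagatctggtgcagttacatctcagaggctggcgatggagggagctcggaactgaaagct
Akr1b7: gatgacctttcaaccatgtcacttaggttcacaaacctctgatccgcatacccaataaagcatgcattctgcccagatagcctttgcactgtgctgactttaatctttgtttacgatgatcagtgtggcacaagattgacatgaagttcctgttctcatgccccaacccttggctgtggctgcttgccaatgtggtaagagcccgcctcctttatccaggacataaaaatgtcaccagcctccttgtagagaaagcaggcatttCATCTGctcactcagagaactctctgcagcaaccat
The Ren1 window held 1 TCF/LEF match, whose first base lies 59 bases before the start, and 1 E-box, which begins at base 30 of the transcript. It also held a TATAAA box that begins 29 bases before the start. The Agtr2 window had 2 E-boxes, beginning 213 and 91 bases before the start, and the Akr1b7 window had 1, beginning at base 15 of the transcript. Of the 32851 promoter windows in the RefSeq table, 72.3% held at least 1 E-box, 3.73% held the TCF/LEF motif and 13.6% held TATAAA on either strand. The first Ace window and those of Agt and Agtr1b held 0, 1 and 2 E-boxes and no TCF/LEF match. The second Ace window, at the internal start of the short testis form, held 1 E-box and no TCF/LEF match. Agtr1a was not found in the table.

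Renin and the type 2 receptor had the highest levels of the 7 genes, and the type 1 receptor gene Agtr1b the lowest. The median over the 7 libraries was 41.6 FPKM for Agtr2, 40.9 FPKM for Ren1, 19.3 FPKM for Akr1b7 and 7.33 FPKM for Agtr1a. It was 1.29 FPKM for Agt, 0.919 FPKM for Ace and 0.573 FPKM for Agtr1b. Ren1 was above Akr1b7, Akr1b7 above Agtr1a and Agtr1a above Agt in 7 of 7 libraries. Agtr2 was above Ren1 in 6 of 7, the exception being E2-2 deleted replicate 2. Agt was above Ace in 4 of 7 libraries and Ace above Agtr1b in 4 of 7, so the order of these 3 low genes changed from library to library. Over all 7 libraries Ren1 varied most, with a 19.4-fold range, against 3.14-fold for Agtr2, 3.00-fold for Akr1b7 and 2.12-fold for Agtr1a. That range rested on E2-2 deleted replicate 2, at 272 FPKM, and elsewhere Ren1 was at 14 to 62.9 FPKM. Without that library Ren1 varied less than Agt or Ace, whose highest and lowest libraries were both wildtype. The substrate gene Agt had a 14.9-fold range, at 9 to 76 inferred fragments per library, and Ace a 5.34-fold range.

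**Figure D1:**
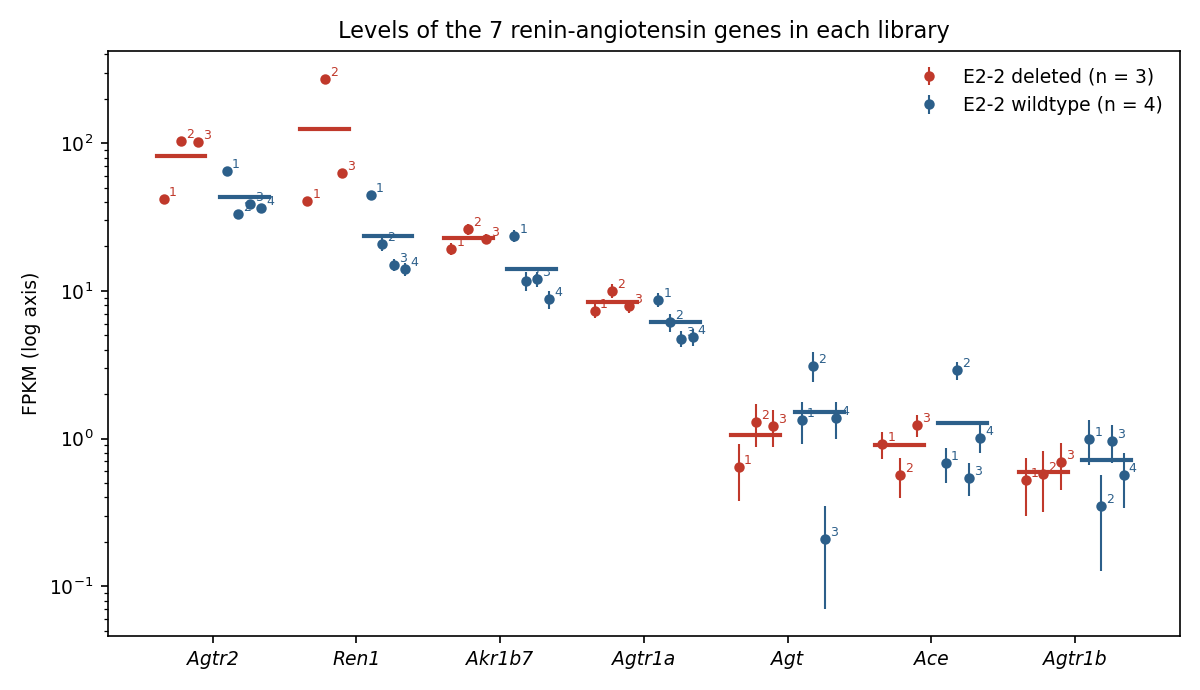
FPKM (log axis) of the 7 genes in each library, E2-2 deleted in red at the left of each pair and E2-2 wildtype in blue; points are libraries with their replicate number, thin bars the deposited bounds and thick lines group means. Ren1 reaches 272 FPKM in E2-2 deleted replicate 2, and wildtype replicate 1 lies among the deleted libraries for Ren1, Agtr2, Akr1b7 and Agtr1a.

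Ren1 (chromosome 1, 135247250 to 135256896 as the deposited tables give it, with no build named) was at 40.9, 272 and 62.9 FPKM in E2-2 deleted replicates 1 to 3, against 44.9, 20.9, 14.96 and 14 FPKM in E2-2 wildtype replicates 1 to 4. Deleted replicate 2 was the highest library by a wide gap, and wildtype replicate 1 lay above deleted replicate 1, so the groups overlapped. The deposited bounds of wildtype replicate 1 (42.1 to 47.7 FPKM) and deleted replicate 1 (38.4 to 43.4 FPKM) also overlapped. The order of these libraries is thus within counting error. The means were 125 ± 128 FPKM (SD, n = 3) in deleted and 23.7 ± 14.5 FPKM (SD, n = 4) in wildtype kidneys, and the difference on the log2(FPKM + 1) scale was 2.02 (SE 0.66). Without deleted replicate 2 the deleted mean was 51.9 FPKM and the difference 1.22. Without wildtype replicate 1 the wildtype mean was 16.6 FPKM and the difference 2.37. Between 380 and 5935 inferred fragments supported each value, so the deposited bounds were within 2.60% to 10.3% of it, far narrower than the gaps between the libraries at the extremes. The tables hold a second renin entry, Ren2, over almost the same span. C57BL/6 mice carry a single renin gene, and where the fragments given to Ren2 come from was not tested. Ren2 was at 0.199, 3.93 and 0.635 FPKM in the deleted libraries and at practically 0 in all 4 wildtype libraries. These included wildtype replicate 1, whose Ren1 was above that of deleted replicate 1. Summing both entries gave a Ren1 difference of 2.04.

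Akr1b7 (chromosome 6, 34362361 to 34373137) had the same 4 highest libraries as Ren1 and a smaller range. It was at 19.3, 26.2 and 22.5 FPKM in deleted replicates 1 to 3, against 23.5, 11.6, 12.0 and 8.74 FPKM in wildtype replicates 1 to 4. Wildtype replicate 1 lay inside the range of the deleted libraries, and the other 3 wildtype libraries lay below all of them. The means were 22.7 ± 3.46 FPKM (SD, n = 3) and 14.0 ± 6.51 FPKM (SD, n = 4), a difference of 0.74 (SE 0.29). Without wildtype replicate 1 the wildtype mean was 10.8 FPKM and the difference 1.01, and without deleted replicate 2 the difference was 0.63. Since Akr1b7 is also a gene of the adrenal cortex, that tissue's genes were read beside it. Cyp11a1 and Cyp21a1, which encode steroid-producing enzymes, reached at most 0.494 and 0.0768 FPKM in any library, and Nr5a1, the master factor of steroid-producing cells, at most 0.455 FPKM. Cyp11a1 was higher in every deleted library, at 0.321, 0.494 and 0.338 FPKM, against 0.238, 0.256, 0.0243 and 0.196 FPKM in the wildtype libraries, and so was Nr0b1, a nuclear receptor gene of the adrenal cortex, at 0.0576 to 0.103 FPKM in deleted and 0 to 0.0554 FPKM in wildtype libraries. Both were too low for testing, and 2.84% of all genes tested had every deleted library higher. Star, which encodes the carrier of cholesterol into mitochondria, was at 2.02 to 2.60 FPKM in deleted and 1.38 to 2.32 FPKM in wildtype libraries, a difference of 0.22 (SE 0.17). Mc2r, the corticotropin receptor gene, was at 1.34 to 3.41 FPKM in deleted and 0.979 to 2.45 FPKM in wildtype libraries, a difference of 0.22 (SE 0.29). The other 2 adrenal cortex genes tested, Fdx1 and Scarb1, had negative differences, at -0.46 (SE 0.23) and -0.21 (SE 0.12). Without deleted replicate 2 these were -0.18 and -0.12. Of the 13 adrenal cortex genes, 9 stayed below 1 FPKM in all 7 libraries, and the sum of the 13 was 35.3 to 53.0 FPKM in deleted and 48.1 to 58.3 FPKM in wildtype libraries, carried mostly by the widely expressed Scarb1 and Fdx1. The part of adrenal content in the Akr1b7 values was not tested.

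Among the receptors, Agtr2 stood far above both type 1 receptor genes in every library. Agtr2 (chromosome X, 21061751 to 21065957) was at 41.6, 104 and 101 FPKM in deleted replicates 1 to 3, against 64.5, 33.2, 39.0 and 36.5 FPKM in wildtype replicates 1 to 4. Deleted replicates 2 and 3 were above all others, and deleted replicate 1 lay between wildtype replicates 1 and 3. The means were 82.3 ± 35.3 FPKM (SD, n = 3) in deleted and 43.3 ± 14.4 FPKM (SD, n = 4) in wildtype kidneys, a difference of 0.85 (SE 0.36). It was 1.28 without deleted replicate 1 and 0.63 without deleted replicate 2.

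Agtr1a (chromosome 13, 30428224 to 30474736), the main type 1 receptor gene of the mouse kidney, was at 7.33, 10.04 and 7.89 FPKM in deleted kidneys, against 8.73, 6.13, 4.73 and 4.84 FPKM in wildtype kidneys. Wildtype replicate 1 was second only to deleted replicate 2. The means were 8.42 ± 1.43 FPKM (SD, n = 3) and 6.11 ± 1.86 FPKM (SD, n = 4), and the difference was 0.43 (SE 0.21), or 0.31 without deleted replicate 2. Agtr1b (chromosome 3, 20213394 to 20266099) was at 0.521, 0.573 and 0.692 FPKM in the deleted libraries, against 0.994, 0.347, 0.961 and 0.566 FPKM in the wildtype libraries. The deleted libraries lay inside the wildtype range, and the difference was -0.09 (SE 0.15), at 10 to 49 inferred fragments per library. The coding sequences of both genes are alike, and how the counting treated fragments shared by them is not given, so the low level of Agtr1b is uncertain.

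The substrate gene Agt and the enzyme gene Ace were low and ordered the libraries in another way. Agt (chromosome 8, 127080486 to 127093607) was at 0.645, 1.29 and 1.22 FPKM in deleted replicates 1 to 3, against 1.34, 3.12, 0.210 and 1.37 FPKM in wildtype replicates 1 to 4. Its highest and its lowest library were both wildtype. The means were 1.05 ± 0.354 FPKM (SD, n = 3) and 1.51 ± 1.20 FPKM (SD, n = 4), a difference of -0.18 (SE 0.39). Ace (chromosome 11, 105829258 to 105851278) was at 0.919, 0.567 and 1.24 FPKM in the deleted libraries, against 0.680, 2.90, 0.542 and 1.02 FPKM in the wildtype libraries. Here too wildtype replicate 2 was the highest and wildtype replicate 3 the lowest, and the difference was -0.17 (SE 0.34). Without wildtype replicate 2 the differences of Agt and Ace were 0.11 and 0.12, and without wildtype replicate 3 they were -0.48 and -0.32. Without deleted replicate 2 they were -0.26 and -0.04. Within BI they were -0.68 and -0.56, and within BM 0.39 and 0.34, so neither had a direction that held across libraries.

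Ren1, Agtr2, Akr1b7 and Agtr1a shared their 4 highest libraries, which were the 3 deleted libraries and wildtype replicate 1. The same 4 libraries were above the other 3 in 2.89% of the 13469 genes tested. That split was read from these members, so the share is given for scale and is no test of them. For these 4 genes the difference was positive within both prefixes and without any 1 library. Such subsets share libraries, and how many of all genes keep their sign in this way was not counted. Within BI the difference was 1.75 for Ren1, 0.50 for Agtr2, 0.42 for Akr1b7 and 0.20 for Agtr1a. Within BM, which holds 1 deleted library, it was 2.05, 1.40, 1.06 and 0.62 for the same genes. With all libraries, the deleted and wildtype groups did not overlap in 0 of the 7 members, against 2.84% of all genes tested with every deleted library higher and 2.05% with every deleted library lower. Without wildtype replicate 1, the deleted libraries were all higher for 4 members, Ren1, Agtr2, Akr1b7 and Agtr1a, which only restates the shared order above. The deleted libraries were then all higher in 4.72% of genes and all lower in 4.96%. Without deleted replicate 1 they were higher for 2 members, Ren1 and Agtr2, against 9.89% of genes, and 10.6% of genes had them all lower. Without wildtype replicate 3 they were lower for 1 member, Agt, against 3.9% of genes, and 4.08% had them all higher. Leaving out any of the other 4 libraries gave 0 such members. The shares of genes with the deleted libraries all higher and all lower were then 4.01% and 2.61% without deleted replicate 2, 4.53% and 6.48% without deleted replicate 3, 6.16% and 7.28% without wildtype replicate 2, and 3.75% and 2.9% without wildtype replicate 4.

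**Figure D2:**
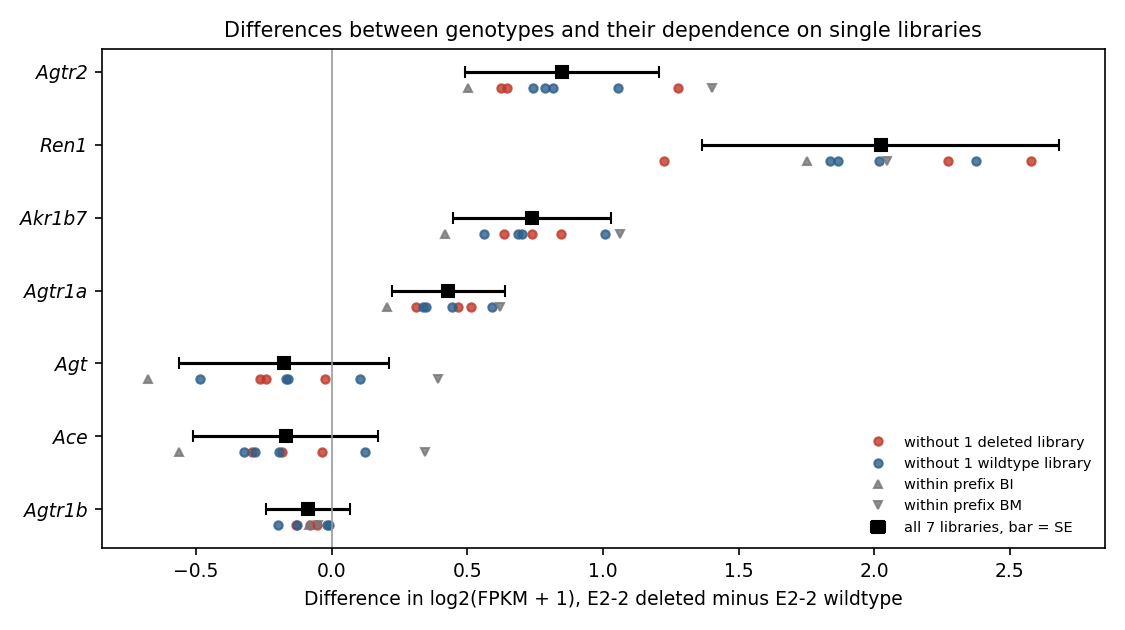
Difference in log2(FPKM + 1), E2-2 deleted minus E2-2 wildtype, for the 7 genes. Black squares use all 7 libraries with bars of 1 SE, and small symbols leave out 1 library or stay within 1 file-name prefix. Ren1 sits at 2.02 and falls to 1.22 without deleted replicate 2, and Agt and Ace lie on both sides of 0.

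With limma and Benjamini-Hochberg adjustment, 0 of the 13469 genes tested passed an adjusted p of 0.05 (0%). The smallest adjusted p was 0.733, and 605 genes (4.49%) had an unadjusted p under 0.05. Of the 7 members, 6 reached the minimum mean of 1 FPKM needed for testing. Ace, with a mean of 1.12 FPKM, was just inside and Agtr1b, with 0.665 FPKM, was outside. The median difference over all genes tested was -0.05, and 39.3% were positive.

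Ratios within a library show how the balance among these transcripts varied. Agtr2 over Agtr1a was 5.68, 10.4 and 12.8 in deleted replicates 1 to 3, against 7.39, 5.41, 8.25 and 7.53 in wildtype replicates 1 to 4. Its means of 9.63 ± 3.63 (SD, n = 3) and 7.15 ± 1.22 (SD, n = 4) differed by less than the SD among the deleted libraries. Ren1 over Akr1b7 was 2.12, 10.4 and 2.80 in the deleted libraries, against 1.91, 1.798, 1.25 and 1.601 in the wildtype libraries. That ratio set deleted replicate 2 apart, since its Ren1 was the highest by far while its Akr1b7 was close to that of wildtype replicate 1.

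**Figure D3:**
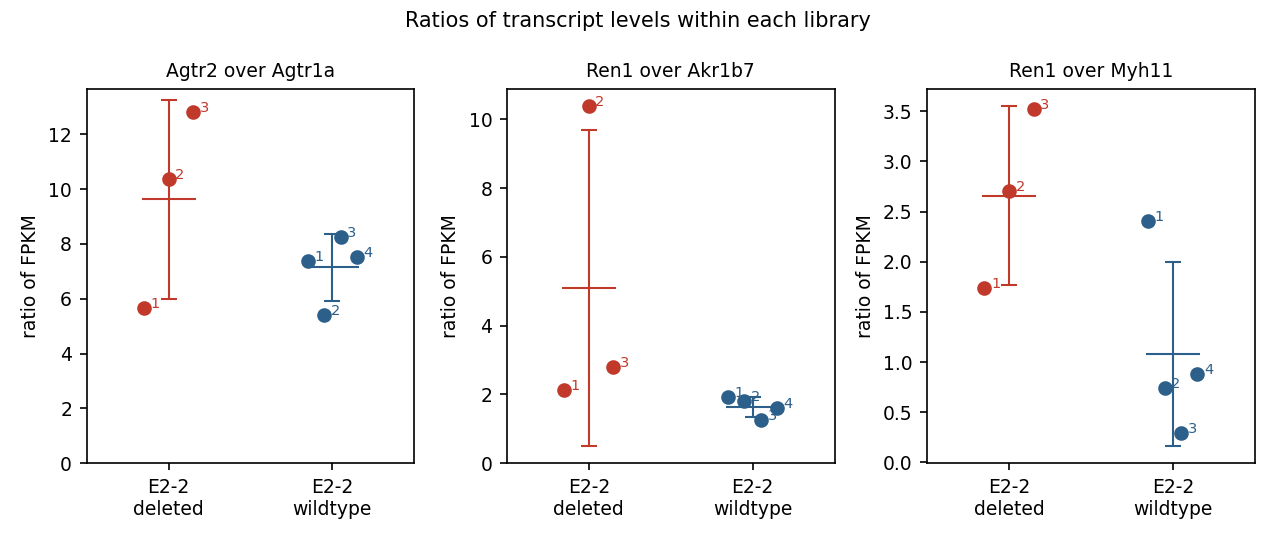
Ratios of FPKM within each library for Agtr2 over Agtr1a, Ren1 over Akr1b7 and Ren1 over Myh11, E2-2 deleted at the left and E2-2 wildtype at the right. Points are libraries with their replicate number, horizontal lines are means and bars are SD. Ren1 over Akr1b7 reaches 10.4 in deleted replicate 2 and stays between 1.25 and 2.80 in the other 6 libraries.

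Renin cells belong to the mural lineage, the smooth muscle and pericytes of vessel walls, and their summed level varied between libraries in another pattern than Ren1, though not that of every mural gene. In bulk RNA, fewer cells of a type and less RNA per cell cannot be told apart. All 15 mural genes were tested, 6 of them with a positive and 9 with a negative difference. Their summed level was 1104 to 2434 FPKM in deleted and 1144 to 2444 FPKM in wildtype libraries. The highest sums were those of deleted replicate 2 and wildtype replicate 3. Myh11, the smooth muscle myosin heavy chain, was at 23.5, 101 and 17.8 FPKM in the deleted libraries, against 18.7, 28.3, 51.1 and 15.9 FPKM in the wildtype libraries. Ren1 was thus at 272 FPKM in the deleted library with most Myh11 and at 14.96 FPKM in the wildtype library with most Myh11. Ren1 over Myh11 was 1.74, 2.71 and 3.53 in the deleted libraries, against 2.40, 0.739, 0.293 and 0.880 in the wildtype libraries, with wildtype replicate 1 again among the deleted ones. Myocd, the smooth muscle coactivator myocardin, peaked in the same library as Ren1, at 2.71, 19.9 and 3.19 FPKM in the deleted libraries, against 1.32, 2.86, 3.83 and 2.25 FPKM in the wildtype libraries. Its difference was 1.00 (SE 0.59), or 0.20 without deleted replicate 2. The difference of Myh11 was 0.43 (SE 0.62), or -0.31 without that library, and that of Abcc9, a channel subunit gene of pericytes, was 0.53 (SE 0.50). The other 9 mural genes had negative differences. Those of Cspg4, Des and Mcam were -0.42 (SE 0.20), -0.27 (SE 0.20) and -0.27 (SE 0.18), or -0.40, -0.07 and -0.15 without deleted replicate 2. The part of mural content in the Ren1 values was not tested beyond these ratios.

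Lrp2, Hnf4a and Slc34a1, genes of the proximal tubule, a site of Agt and Ace transcripts, were highest in the library with most Agt and Ace. In wildtype replicate 2, Lrp2, the endocytic receptor megalin, was at 8.40 FPKM, Hnf4a, a factor of proximal tubule and liver, at 9.42 FPKM and the phosphate transporter gene Slc34a1 at 3.91 FPKM. In the other libraries they did not exceed 3.87, 3.04 and 1.48 FPKM. In wildtype replicate 3, which had least Agt and Ace, Lrp2 was at 1.06 FPKM, its lowest level, but Hnf4a at 1.47 FPKM and Slc34a1 at 0.278 FPKM were above their levels in deleted replicates 1 and 2. The 9 proximal tubule genes summed to 21.3 to 91.4 FPKM in deleted and 20.1 to 46.0 FPKM in wildtype libraries, where the top value rests on 86.4 FPKM of the water channel gene Aqp1 in deleted replicate 2, a gene that vessels also express. Liver is the main source of circulating angiotensinogen, and 7 of 12 hepatocyte genes stayed below 1 FPKM in all libraries. Albumin (Alb) was at most 0.124 FPKM, while Afp, a gene of fetal liver, was at 12.85 FPKM in wildtype replicate 2 and at 0.527 to 2.41 FPKM elsewhere. The hepatocyte sum was 1.93 to 8.01 FPKM in deleted and 2.74 to 19.8 FPKM in wildtype libraries. The part of tubule or hepatocyte content in the Agt and Ace values was not tested.

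Endothelial cells also make Ace, and their genes were well expressed in all libraries. The 11 endothelial genes summed to 354 to 538 FPKM in deleted and 269 to 594 FPKM in wildtype libraries. Their lowest sum was in wildtype replicate 3, the library with least Ace, and their highest in wildtype replicate 1, where Ace was at 0.680 FPKM. Of the 11, 8 had a positive and 3 a negative difference, at a median of 0.02. Tek, the angiopoietin receptor gene, was at 9.01, 9.42 and 11.4 FPKM in the deleted libraries, above 7.54, 7.93, 2.99 and 3.27 FPKM in the wildtype libraries, and it did not pass limma (adjusted p = 0.795). It was the 1 gene of this list whose groups did not overlap, against 2.84% of all genes tested in that direction. Adrenal medulla and sympathetic genes summed to 7.42 to 55.9 FPKM in deleted and 12.9 to 55.4 FPKM in wildtype libraries, highest in deleted replicate 3 and wildtype replicate 1. Mast cell genes, a source of the chymases that also make angiotensin II, summed to 2.92 to 6.68 FPKM in deleted and 2.03 to 12.5 FPKM in wildtype libraries, mostly from Hdc, and the chymase genes Cma1 and Mcpt4 did not exceed 0.0938 and 0.0571 FPKM. The 9 gonad genes summed to 6.25 to 8.25 FPKM in deleted and 4.66 to 5.61 FPKM in wildtype libraries, with no overlap. Of single genes tested, 2.84% had every deleted library higher. Inha, the inhibin alpha gene, was at 3.99 to 4.598 FPKM in deleted and 2.64 to 4.06 FPKM in wildtype libraries. Lhx9, a factor of the early gonad, was at 0.615, 3.78 and 1.53 FPKM in the deleted libraries, against 0.535, 0.898, 0.217 and 0.235 FPKM in the wildtype libraries, a difference of 0.90 (SE 0.37), or 0.48 without deleted replicate 2. Hsd17b3, a testosterone-producing enzyme gene, was at 0.0508 to 0.168 FPKM in deleted libraries and listed at 0 in the wildtype ones, and the germ cell gene Ddx4 stayed at 0.112 to 0.401 FPKM in all 7. Insl3 of the same list went the other way, with a difference of -0.55 (SE 0.42). It was at 0.824 and 2.00 FPKM in wildtype replicates 2 and 3, at 0.133 FPKM in deleted replicate 1 and at practically 0 elsewhere. The 12 kidney rudiment genes summed to 112 to 415 FPKM in deleted and 298 to 475 FPKM in wildtype libraries. The part of these cell types in the members' values was not tested.

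**Figure D4:**
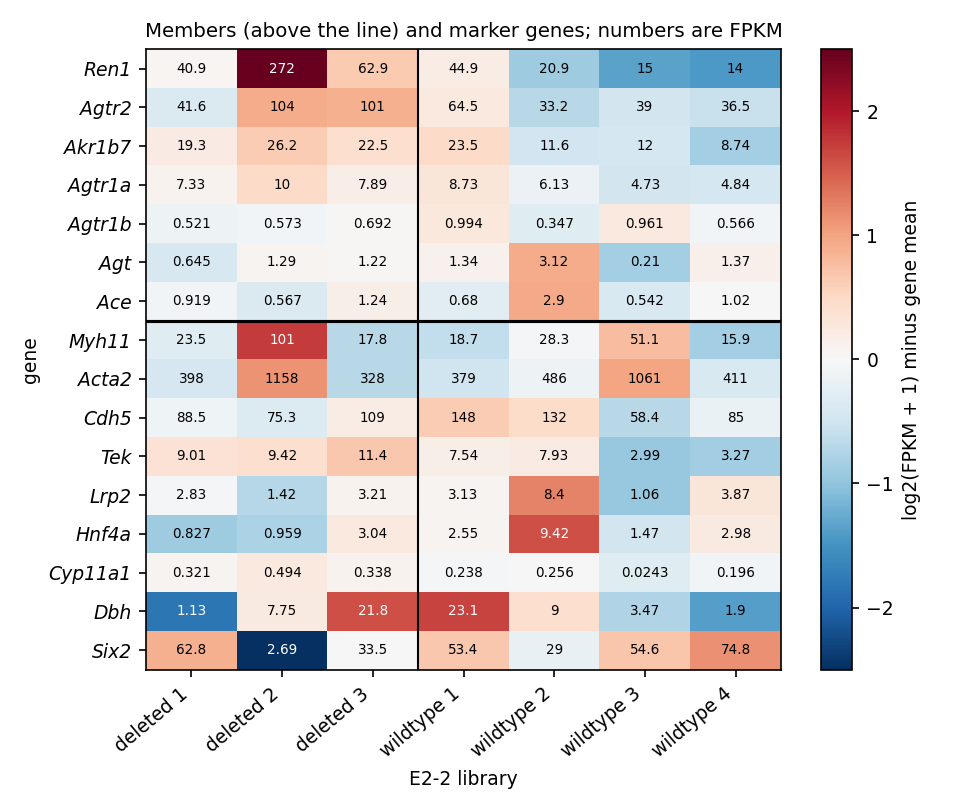
Level of the 7 members (above the line) and of marker genes in each library, with E2-2 deleted libraries at the left. Colour is log2(FPKM + 1) minus the gene's mean, clipped at 2.5 either way, and the printed numbers are FPKM. Agt and Ace are darkest in wildtype replicate 2 together with Lrp2 and Hnf4a, and Six2 is lowest, at 2.69 FPKM, in deleted replicate 2, where Ren1 is highest.

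The genes whose pattern over the 7 libraries was most like that of Ren1 were ranked by Pearson's r of log2(FPKM + 1), as a description. All values share the same 7 libraries, and the top of a ranking of 13468 genes is high by selection. Closest were Matn4, a matrix protein of the matrilin family (r = 0.994, or 0.990 without deleted replicate 2), and Entpd1, the ectonucleotidase CD39 (r = 0.993, or 0.992 without it). The channel subunit gene Lrrc55 and the cytoskeletal linker gene Tln2 followed at r = 0.986 and 0.985. Matn4 was at 1.03, 4.18 and 1.40 FPKM in the deleted libraries, against 1.13, 0.628, 0.450 and 0.282 FPKM in the wildtype libraries. Lrrc55 was at 0.874, 3.15 and 1.62 FPKM, against 1.20, 0.729, 0.565 and 0.489 FPKM. Both were near the minimum mean of 1 FPKM and reached it only through the deleted libraries, where Ren1 was also high, so their r carries little weight. Entpd1 was at 3.75, 12.8 and 6.12 FPKM in the deleted libraries, against 4.17, 2.16, 1.77 and 1.41 FPKM in the wildtype libraries. It ranked the libraries exactly as Ren1 did (Spearman's rho of 1). Among the members, Agtr1a ranked 289 in likeness to Ren1 (r = 0.912), Agtr2 560 (r = 0.864) and Akr1b7 570 (r = 0.863). Without deleted replicate 2, Akr1b7 was the closest member to Ren1 (r = 0.952). Agt and Ace showed little likeness to Ren1, at r = 0.08 and -0.32.

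The pattern of Agtr2 was most like that of Mrc1, the mannose receptor gene of macrophages (r = 0.986), followed by Chmp2a, a membrane remodelling subunit (r = 0.980), the interleukin-4 receptor gene Il4ra (r = 0.972) and the chemokine gene Ccl6 (r = 0.968). Mrc1 was at 9.17, 14.8 and 13.3 FPKM in the deleted libraries, against 11.3, 7.61, 8.95 and 8.69 FPKM in the wildtype libraries. Chmp2a reached that r while varying little, between 82.8 and 89.9 FPKM. Ren1 ranked 208 in likeness to Agtr2. The 4 genes closest to Ren1 and the 4 closest to Agtr2 had no gene in common.

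Other enzymes and receptors of angiotensin and kinin peptides showed no common direction. Of the 20 genes listed, 13 were tested, 7 with a positive and 6 with a negative difference, at a median of 0.04 against -0.05 over all genes. None passed limma in either direction (smallest adjusted p = 0.795). Prcp, a carboxypeptidase that cuts angiotensin II, was at 31.4, 29.0 and 37.2 FPKM in the deleted libraries, above 26.3, 22.3, 18.6 and 20.6 FPKM in the wildtype libraries, a difference of 0.55 (SE 0.14). Ctsa, the lysosomal carboxypeptidase cathepsin A, also had all deleted libraries higher, at 66.8 ± 12.7 FPKM (SD, n = 3) against 52.4 ± 4.85 FPKM (SD, n = 4). These were 2 of the 13 genes, against 2.84% of all genes tested. Mas1, the receptor of angiotensin 1-7, stayed at 0.179 to 0.540 FPKM, and Mrgprd was listed at 0 in all 7 libraries. Atp6ap2, the prorenin receptor and a proton pump subunit, was at 67.4 ± 11.5 FPKM (SD, n = 3) in deleted and 54.7 ± 5.27 FPKM (SD, n = 4) in wildtype kidneys. The bradykinin receptor gene Bdkrb2 was at 2.69 ± 1.38 FPKM (SD, n = 3) and 1.08 ± 0.277 FPKM (SD, n = 4), a difference of 0.76 (SE 0.28). Without deleted replicate 2 this difference was 0.50, and those of Ctsa and Atp6ap2, which were 0.33 and 0.29 with all libraries, were 0.18 and 0.16.

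Known regulators of renin were split evenly. Of 22 genes, 18 were tested, 9 with a positive and 9 with a negative difference, and none passed limma (smallest adjusted p = 0.795). The median was -0.00, against -0.05 over all genes tested, of which 39.3% were positive. Gja4, the connexin 37 gene of arterial endothelium and renin cells, was lower in every deleted library, at 12.6, 11.1 and 15.5 FPKM, against 22.5, 33.0, 28.8 and 16.2 FPKM in the wildtype libraries. It was the 1 tested gene of this list whose groups did not overlap, against 2.05% of all genes in that direction. Ptger2, too low for testing, was higher in every deleted library. It was at 0.989, 2.30 and 1.06 FPKM, against 0.728, 0.420, 0.630 and 0.752 FPKM in the wildtype libraries. Its difference was 0.55 (SE 0.20), or 0.32 without deleted replicate 2. Of all genes tested, 2.84% had every deleted library higher. Nr2f6, a nuclear receptor known to repress the renin promoter, was at 24.8 ± 7.62 FPKM (SD, n = 3) against 40.8 ± 10.5 FPKM (SD, n = 4), a difference of -0.71 (SE 0.25). Hoxd10, whose protein binds the proximal Ren1 promoter in the mouse, was at 50.8 ± 7.86 FPKM (SD, n = 3) in deleted and at 41.0 ± 4.17 FPKM (SD, n = 4) in wildtype kidneys. Gnas, the stimulatory G protein subunit of the cyclic AMP signal for renin, was at 955 ± 152 FPKM (SD, n = 3) and 972 ± 85.3 FPKM (SD, n = 4). The adenylyl cyclase gene Adcy5 was at 2.18, 5.22 and 2.65 FPKM in the deleted libraries, against 2.19, 2.27, 2.08 and 1.26 FPKM in the wildtype libraries, so its difference of 0.51 (SE 0.26) rested on deleted replicate 2 and was 0.22 without it. Without that library the difference of Hoxd10 was 0.19, against 0.30 with it, and that of Nr2f6 was -0.48.

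The steroid branch, through which angiotensin II acts on salt transport by way of aldosterone, gave 5 positive and 4 negative differences among 9 tested of 10 genes. The median was 0.21, against -0.05 over all genes tested, of which 39.3% were positive. None passed limma (smallest adjusted p = 0.795). Sgk1, a kinase induced by steroid receptors, was at 18.7, 33.4 and 25.0 FPKM in the deleted libraries, against 19.2, 18.5, 13.0 and 14.7 FPKM in the wildtype libraries, a difference of 0.60 (SE 0.21). Wildtype replicate 1 was above deleted replicate 1, as it was for Ren1. The steroid-induced genes Tsc22d3 and Fkbp5 had negative differences, at -0.26 (SE 0.17) and -0.31 (SE 0.20), and Scnn1a, a subunit of the epithelial sodium channel, a positive one of 0.35 (SE 0.26). Without deleted replicate 2 the differences were 0.40 for Sgk1, -0.12 for Tsc22d3, -0.08 for Fkbp5 and 0.27 for Scnn1a. Without wildtype replicate 3, only 3 members of this list were positive and the median was -0.12.

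**Figure D5:**
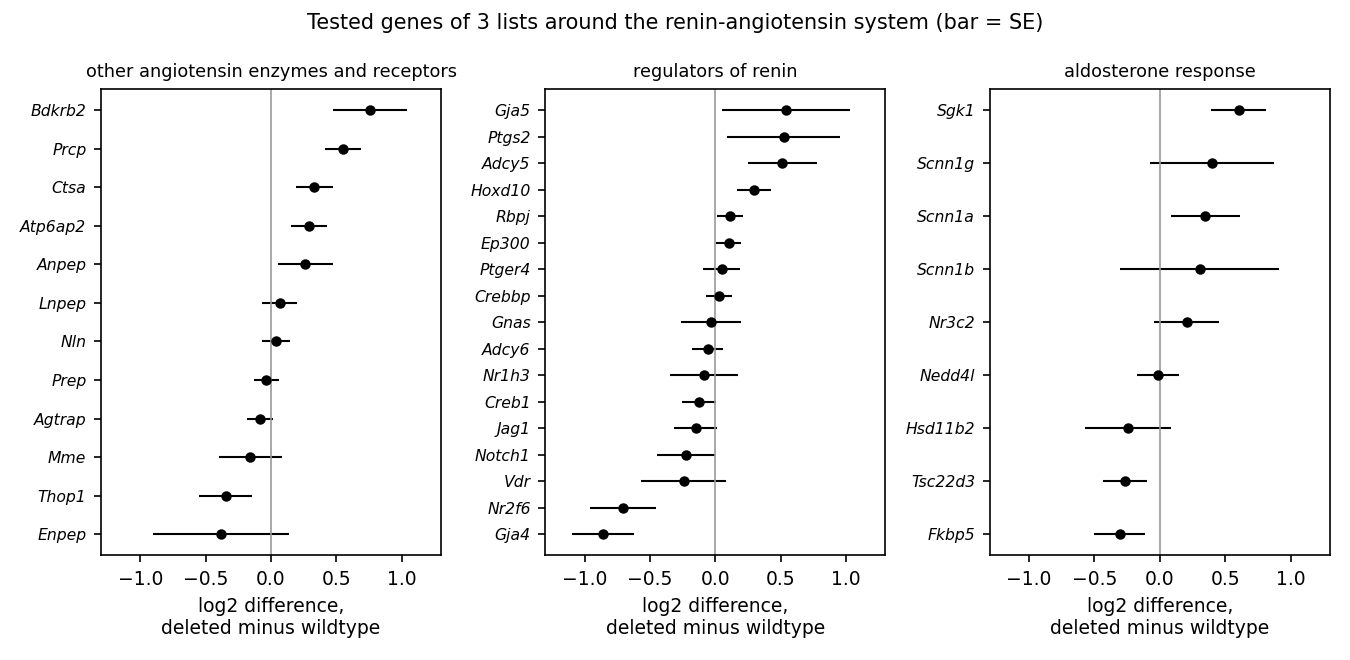
Difference in log2(FPKM + 1), E2-2 deleted minus E2-2 wildtype, for tested genes of 3 lists: other angiotensin enzymes and receptors, regulators of renin, and aldosterone response. One gene of each of the first 2 lists is not drawn. Points are the fitted differences and bars 1 SE. In the first 2 lists genes lie on both sides of 0, with Bdkrb2 at 0.76 and Gja4 at -0.86 at the ends.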

How the data were processed

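Per the file headers, the authors' tables, 1 for each library, list FPKM by gene together with bounds and a status of the estimate. The submitters' processing notes name Cufflinks 2.0.2, TopHat2 2.0.4 and CASAVA 1.8.2 but no role for any of them. Genome build, annotation and strand setting: not given in the sources used here. Each table had 23699 entries. A total of 25 symbols of E2-2 deleted replicate 2 had become dates and were read from the matching loci of another library. Entries of a symbol were summed (248 symbols had several). Symbols with a failed or low-data status, or a locus under 200 bases, were left out, and 13469 genes with a mean of at least 1 FPKM were tested.

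Values were log2(FPKM + 1), a scale that understates the change of genes near 1 FPKM. The comparison used limma 3.58.1 (R 4.3.3) on all 7 libraries, with a mean-variance trend, 2-sided p-values, a Benjamini-Hochberg adjustment over every gene tested and a threshold of 0.05. It was tested on simulated data with independent noise of the same spread in every library, which does not cover a library that stands apart from the others. Members below the minimum were described from a fit with no minimum. Fragment numbers were inferred as the square of 2 times the FPKM over the distance to the upper bound. In single-start genes with under 300 such fragments, 79.6% to 80.5% were within 0.05 of a whole number. They are inferences, not counts read from the tables. Bounds and fragment numbers cover counting error only.

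The members and the 13 gene lists were chosen with earlier results of these data known. Named genes were the members, the 4 smallest p-values and 2 highest means of a list, and the 4 genes closest to Ren1 and to Agtr2, predicted genes left out. Of the marker lists, other genes were chosen after their values were seen, to show levels beside a result. So were Mas1, Mrgprd, Cma1, Mcpt4 and Ptger2. Not every gene that the rule covers is described, and 2 list genes that enter the counts are not reported here. Alternatives were the pseudocount, the minimum level, scaling, the file-name prefix, the entry used for a symbol and each library left out.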

Additional observations from a re-analysis of the deposited data

Results flagged for a closer look

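In 5 of 72 sets of values tested over the 4 wildtype libraries, 1 library lay far from the other 3, where chance gives about 1 set in 20. Afp was at 12.85 FPKM in wildtype replicate 2, the library with most Agt and Ace. Acta2, the smooth muscle actin gene, was at 1061 FPKM and Tagln, another smooth muscle gene, at 689.7 FPKM in wildtype replicate 3, where Ren1 was at 14.96 FPKM. Scarb1 was at 34.42 FPKM in the same library. Ctsa was at 45.21 FPKM in wildtype replicate 4, below the other wildtype libraries. None of the 7 members was set apart in this way among the wildtype libraries, and groups of 3 were not examined.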

How the results depend on the processing

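No paired analysis was possible because the labels give no replicate numbers. Ren1 differed by 1.22 to 2.58 with 1 library left out, Agtr2 by 0.63 to 1.28, Akr1b7 by 0.56 to 1.01, Agtr1a by 0.31 to 0.59 and Agtr1b by -0.20 to -0.01. Agt ranged from -0.48 to 0.11 and Ace from -0.32 to 0.12, and Ace was at 0.34 within BM, where Agt was at 0.39. With a pseudocount of 0.1, median-of-ratios scaling or the prefix as a term, the 7 differences moved by less than the spread between replicates, and Ren1 with Ren2 added, chosen after seeing the data, likewise. Members with groups that did not overlap numbered 0 to 4 with 1 library left out, where 3.75% to 9.89% of genes had all deleted libraries higher and 2.61% to 10.6% had them all lower. The genes past an adjusted p of 0.05 remained 0 with 1 library left out, and were 4 (Gm10640, Ndufs5, Pgc and Tmprss11bnl, named after their values were seen) with no filter on low values. At an unadjusted p under 0.05 there were 231 (without deleted replicate 2) to 1473 (without deleted replicate 1) genes with 1 library left out, 347 without wildtype replicate 4, and 984 with no filter. With no filter, 11 genes of the list of other angiotensin enzymes and receptors were positive. With 1 library left out, 6 to 8 of that list, 8 to 12 regulators of renin and 3 to 7 aldosterone response genes were positive. The cause of these changes was not tested. Agt and Agtr1b rest on few inferred fragments, 9 to 76 and 10 to 49 per library, which limits what their values can show. Ace rests on more, 42.7 to 196 per library, so its values are limited in this way to a lesser degree.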
